A study of Pan troglodytes with 8 samples.

Results

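The stretch of chromosome around TBR1 was examined region by region for chromatin accessibility in 4 cell populations sorted from chimpanzee cerebral organoids. Its members were every row of the deposited count table whose closest gene was TBR1, plus every row whose midpoint in human coordinates lay in a window of 400 kb around TBR1 on chromosome 2 of the human build hg38. This gave 35 of 218080 rows. The 3 rows closest to TBR1 were among the 35 rows of the window. Of the 35, 33 had a chimpanzee identifier and counts, and all 33 passed the filter on low counts. The other 2, both nearest to the non-coding gene AC009299.2 and 74.8 and 58.9 kb from the TBR1 start, had no chimpanzee identifier and no counts, so they carry no value here. One of them had a gorilla identifier.

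The assay was ATAC-seq on bulk cells: a transposase cuts open chromatin and tags the fragments for sequencing. The organoids came from 1 induced pluripotent stem cell line, SandraA, with no treatment contrast in the labels, and were taken in week 8 of culture, give or take 3 days. The 4 populations were apical radial glia (aRG), the stem cells at the ventricle; basal radial glia (bRG), their relatives away from it; basal intermediate progenitor cells (bIP), which divide to make neurons; and neurons positive for BCL11B (N). Each had 2 libraries, with 24913928 to 34845193 counts per library. The labels do not say whether libraries 1 and 2 came from separate cultures, so p-values measure only the spread between these samples, which may be technical. Nor do they say which markers set the sort gates, beyond BCL11B in the name of the neurons.

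TBR1 is a transcription factor of the T-box family. In the developing cortex the excitatory lineage passes from PAX6 in radial glia through EOMES in intermediate progenitors to TBR1 in newborn neurons, and TBR1 helps set the identity of layer 6 neurons, which project to the thalamus. EOMES and TBR1 are close relatives within the family. An accessible region near a gene start may belong to that gene or to another, and accessibility is not transcription.

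The populations were compared with known genes first. A gene locus here is the sum of counts over the regions closest to a protein-coding gene and at most 50 kb away. Locus CPM use the TMM-scaled total over all loci, which held 38.9 to 41.9% of the counts in the regions tested, so they are larger than the CPM of single regions, and these scales are not to be mixed. CPM stands for counts scaled to a common total. The 7 radial glia marker loci summed to 1270 to 1340 locus CPM over the aRG libraries, against 1270 to 1290 (bRG), 597 to 778 (bIP) and 344 to 371 (N). The 7 neuron marker loci summed to 730 to 809, 768 to 831, 1510 to 1620 and 1470 to 1560 CPM, so bIP and N overlapped. The 5 intermediate progenitor marker loci summed to 524 to 571 (aRG), 532 to 554 (bRG), 981 to 992 (bIP) and 520 to 659 CPM (N). From bIP to N, 4 of these 5 fell and 1, SSTR2, rose (1.29 ± 0.35). The BCL11B locus, by which the neurons are named, was not higher in N (132 and 115 CPM) than in aRG (155 and 138 CPM), with a log2 fold change of -0.25 ± 0.10 (SE) that did not pass (adjusted p = 0.072 by edgeR's quasi-likelihood test). Loci of inhibitory neuron genes, which belong to another lineage, summed over 7 genes to 561 to 647 CPM (aRG), 557 to 559 (bRG), 461 to 472 (bIP) and 305 to 330 (N), and 4 choroid plexus and hem loci to 328 to 351, 304 to 335, 208 to 224 and 157 to 161 CPM. No locus of either list was at 0 CPM. The sums of mesenchyme loci overlapped between populations, at 176 to 220 CPM over 4 genes. Single loci could depart from these sums. From aRG to N, COL1A1 fell (-1.07 ± 0.19, adjusted p = 0.0017) and the other 3 mesenchyme loci did not pass. From aRG to bIP, GAD1 rose (0.52 ± 0.10, adjusted p = 0.0052), while 3 inhibitory neuron loci fell and 3 did not pass. The part of other cell types in the results below was not tested, and in bulk samples fewer cells of a type and less signal per cell cannot be told apart.

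Most of the TBR1 neighbourhood differed between the populations. In the joint test over all 4 populations, 30 of 33 regions passed an adjusted p of 0.05 (edgeR, Benjamini-Hochberg over all 198227 regions tested), where 73.5% of all regions did. Against aRG, 25 passed in bIP (19 higher, 6 lower), where the background was 47.2% (24.5% higher, 22.6% lower), and 28 passed in N (20 higher, 8 lower), where it was 69.0% (37.2% higher, 31.7% lower). Against bRG, 23 passed in bIP (18 higher, 5 lower; background 42.9%, with 22.4% higher and 20.4% lower) and 29 in N (22 higher, 7 lower; background 67.9%, with 37.5% higher and 30.4% lower). These comparisons share libraries and are not independent. Between N and bIP, 12 passed (6 higher, 6 lower), a share of 36.4% that lies below the background of 47.6% (25.0% higher, 22.6% lower). With DESeq2's size factors the split was 6 higher and 9 lower. The count of lower regions was 3 in bIP against aRG without aRG 1 and 3 in bIP against bRG without bIP 1, and the count of higher regions in N against bIP was 3 without bIP 2.

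The radial glia did not separate here. None of the 33 regions passed between bRG and aRG in edgeR or in DESeq2, where the background was 0.0%. Of all 198227 regions tested, 5232 had an unadjusted p under 0.05 in edgeR, and 1 of the members did. Chosen after its value was seen, that region lies 6.3 kb from the TBR1 start and is described below. The median log2 fold change over the members was -0.08.

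**Figure D1:**
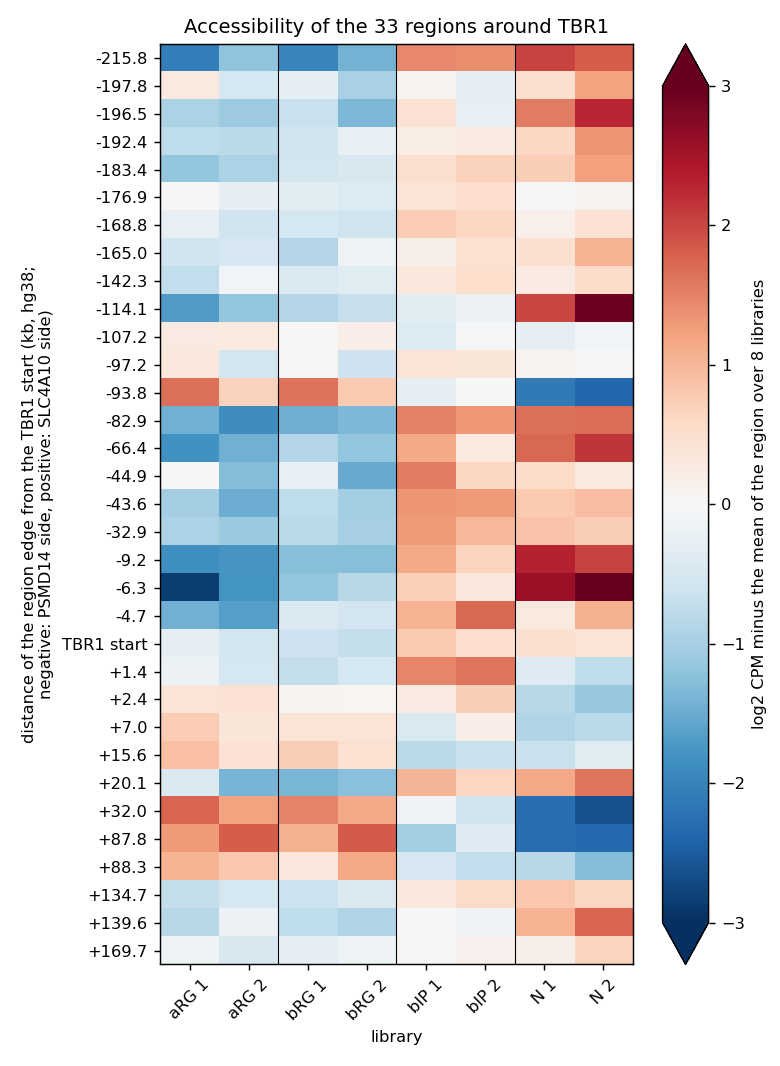
Each row is 1 of the 33 regions, in order along the chromosome and named by the distance in kb of its nearest edge from the TBR1 start, and each column is 1 of the 8 libraries. Colour is log2 CPM minus the region's mean over the libraries, with the scale ending at 3 either way; the aRG and bRG columns look alike, and a block at 7.0 to 88.3 kb on the SLC4A10 side, apart from the region at 20.1 kb, is high in them and low in N.

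Regions are named here by the distance from their nearest edge to the TBR1 start in hg38. That start was read from the table, where the distances of 2 of 2 regions pointed to position 161416297 of chromosome 2. On the lower side lies PSMD14, a proteasome subunit gene, and on the higher side SLC4A10, a bicarbonate transporter gene of neurons. Their starts, read in the same way, were at 161308425 and 161624337. The first lies inside the window and the second beyond it. TBR1 is transcribed towards SLC4A10. Apart from TBR1, the closest genes of the members were mostly non-coding genes and pseudogenes, and only 2 of the 33 regions had PSMD14 as closest gene. Distances to the closest gene ran to gene starts, and gene ends, exons and introns were not used here. A region may thus lie inside a gene, PSMD14 included, without having it as closest gene.

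The region over the TBR1 start had a listed peak in all 4 populations and its highest levels in bIP and N. It spans chr2B:47992072-47994758 in panTro6 (chr2:161414238-161416932 in hg38). On the scale of single regions, where CPM refer to the TMM-scaled total over all regions tested, it had 27.1 and 22.2 CPM in the aRG libraries, 21.3 and 19.9 in bRG, 56.4 and 46.5 in bIP and 45.4 and 43.3 in N. Both bIP and both N libraries lay above all radial glia libraries, and N lay below bIP. The rise from aRG was 1.06 ± 0.13 on the log2 scale in bIP (adjusted p = 5.3e-05) and 0.85 ± 0.13 in N (adjusted p = 7.7e-05). N against bIP was -0.21 ± 0.13 and did not pass (adjusted p = 0.18), but passed without bIP 2 (-0.50, adjusted p = 0.015).

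Another region, just inside the gene, was high in intermediate progenitors alone among the 4 populations. It starts 1.4 kb past the TBR1 start, at chr2B:47995527-47996213 (chr2:161417701-161418395 in hg38). It had 4.50 and 3.53 CPM in aRG, 3.12 and 3.57 in bRG, 14.4 and 15.7 in bIP and 3.94 and 3.02 in N. The N libraries fell within the range of the radial glia or just below it, while both bIP libraries stood apart. It rose by 1.90 ± 0.27 from aRG to bIP (adjusted p = 0.00014) and by 2.17 ± 0.27 over bRG (adjusted p = 7.1e-05), and fell by 2.11 ± 0.27 from bIP to N (adjusted p = 0.0001). N against aRG was -0.20 ± 0.27 and did not pass (adjusted p = 0.52). The bIP list of consensus peaks was the only one of the 4 with a peak there. It was the sole member with that pattern of lists, which 4.54% of all regions kept had.

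The region 2.4 kb past the start was low in neurons. At chr2B:47996495-47996992 (chr2:161418677-161419174 in hg38) it had 5.05 and 5.25 CPM in aRG, 4.12 and 4.05 in bRG, 4.69 and 6.56 in bIP and 2.14 and 1.73 in N. Both N libraries lay below the other 6. N fell by 1.53 ± 0.29 from bIP (adjusted p = 0.0011) and by 1.41 ± 0.29 from aRG (adjusted p = 0.00088), and bIP against aRG was 0.13 ± 0.28 (adjusted p = 0.74). The peak lists of aRG and bRG had a peak there and that of bIP had none, though its counts in bIP were no lower.

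So the 3 regions whose closest gene is TBR1 followed 3 courses. Within each library, the region at 1.4 kb had 0.147 to 0.179 times the CPM of the start region in radial glia, 0.255 and 0.338 times in bIP and 0.0869 and 0.0699 times in N. The difference between the courses was not tested. Summed as a gene locus, they had 82.3 and 70.3 locus CPM (on the total over loci) in aRG, 68.2 and 68.0 in bRG, 204 and 177 in bIP and 132 and 122 in N, so the order was bIP, N and then the radial glia, which did not differ from each other beyond their test (-0.16 ± 0.10, adjusted p = 1). The fall of the locus from bIP to N (-0.58 ± 0.10, adjusted p = 0.0037 in edgeR over 14070 loci) stood beside falls at 1.4 and 2.4 kb, while the start region made up 67.6 and 74.7% of the locus counts in bIP and 88.2 and 90.1% in N. Over the sum of all 33 regions the difference between N and bIP was -0.18 and did not pass (adjusted p = 0.29), while bIP against aRG was 0.89 (adjusted p = 0.00095).

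**Figure D2:**
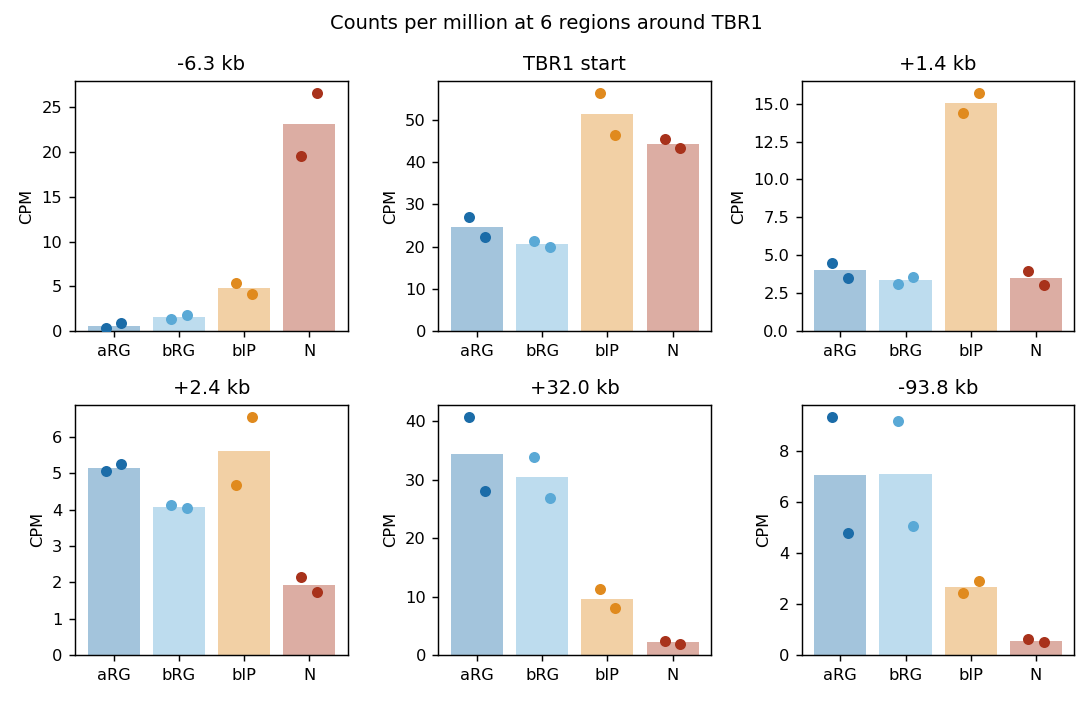
CPM at 6 regions around TBR1 in the 4 populations, with a point per library and a bar at the mean of the 2 libraries; titles give the distance in kb from the TBR1 start, negative on the PSMD14 side. The region at 1.4 kb is high in bIP alone, that at 6.3 kb on the PSMD14 side rises to 19.6 and 26.6 CPM in N, and that at 32.0 kb on the SLC4A10 side falls from 40.8 and 28 CPM in aRG to 2.45 and 1.92 in N.

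On the PSMD14 side of the gene, close by, lay regions that rose in steps. The region 6.3 kb from the start, at chr2B:47987035-47987817 (chr2:161409199-161409982 in hg38), had 0.392 and 0.882 CPM in aRG, 1.38 and 1.80 in bRG, 5.41 and 4.15 in bIP and 19.6 and 26.6 in N. The populations did not overlap with each other. It rose by 2.91 ± 0.38 from aRG to bIP (adjusted p = 8.6e-05) and by a further 2.27 ± 0.32 from bIP to N (adjusted p = 0.00016), and N exceeded aRG by 5.18 ± 0.39 (adjusted p = 4.1e-07). Of the rises in N over aRG among the members, this was the largest. Its bRG libraries exceeded its aRG libraries by 1.32 on the log2 scale, with an unadjusted p of 0.0057 and an adjusted p of 1. The aRG values rest on counts of 10 and 21. The region overlaps the start of RNA5SP108, a pseudogene of 5S ribosomal RNA, which is its closest gene in the table.

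Its neighbour at 9.2 kb behaved alike, at chr2B:47984019-47984954 (chr2:161406188-161407123 in hg38). It had 0.548 and 0.588 CPM in aRG, 0.853 and 0.851 in bRG, 4.80 and 3.49 in bIP and 11.0 and 9.07 in N. The populations again did not overlap. It rose by 2.86 ± 0.34 from aRG to bIP (adjusted p = 4.5e-05) and by 1.28 ± 0.28 from bIP to N (adjusted p = 0.0025). That last step did not pass without bIP 2 (0.92, adjusted p = 0.052). Both regions had peaks in the bIP and N lists and in neither radial glia list.

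Between them and the gene, a narrow region of 204 bp at 4.7 kb had more signal in bIP and N than in radial glia. It had 0.157 and 0.126 CPM in aRG, 0.383 and 0.340 in bRG, 1.20 and 1.96 in bIP and 0.683 and 1.22 in N. The bIP and N libraries overlapped, and N against bIP did not pass (-0.74 ± 0.40, adjusted p = 0.14) but passed with loess scaling (-1.39, adjusted p = 0.0095). The aRG values stand for counts of 4 and 3, so the rise in bIP of 3.43 ± 0.53 (adjusted p = 0.00026) starts from near the floor of detection. No list had a peak there. Per kb of width, the start region had 19.1 CPM in bIP and 16.5 in N, and the 6.3 kb region 6.10 and 29.5, and no test was made between regions.

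Further along that side lay regions that rose in bIP and did not pass between bIP and N. The region at 32.9 kb, chr2B:47959381-47961219, had 6.74 and 5.96 CPM in aRG, 7.39 and 6.53 in bRG, 31.6 and 26 in bIP and 23.7 and 21.8 in N. All bIP and N libraries lay above all radial glia libraries. It rose by 2.18 ± 0.18 in bIP (adjusted p = 6e-06), and N against bIP was -0.34 ± 0.17 (adjusted p = 0.11). That difference passed with DESeq2's size factors (-0.43, adjusted p = 0.048) and without bIP 2 (-0.63, adjusted p = 0.027).

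The region at 82.9 kb, chr2B:47911829-47913010, went further. It had 1.72 and 1.26 CPM in aRG, 1.68 and 1.84 in bRG, 13.8 and 11.8 in bIP and 15.3 and 15.4 in N. The rise was 3.10 ± 0.27 in bIP (adjusted p = 8.9e-06) and 3.36 ± 0.27 in N (adjusted p = 7.2e-07), both over aRG. The region at 215.8 kb, at the edge of the window and nearest to AC009313.1, had 0.431 and 0.840 CPM in aRG, 0.471 and 0.714 in bRG, 5.71 and 5.49 in bIP and 8.51 and 7.38 in N. Its rise in bIP was 3.14 ± 0.37 (adjusted p = 4.1e-05). At both regions N against bIP did not pass (0.26 ± 0.24 and 0.51 ± 0.30).

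The region at 114.1 kb was a neuronal one, though the step before was small. It had 0.235 and 0.378 CPM in aRG, 0.471 and 0.544 in bRG, 0.727 and 0.806 in bIP and 3.94 and 7.54 in N. N rose by 2.89 ± 0.39 over bIP (adjusted p = 0.00013). The smaller rise from aRG to bIP (1.32 ± 0.50, adjusted p = 0.045) did not pass with DESeq2 (adjusted p = 0.079), with loess scaling (adjusted p = 0.072) or without any 1 of the aRG, bRG or bIP libraries (adjusted p of 0.056 to 0.24). The region at 196.5 kb was similar, with 0.470 and 0.420 CPM in aRG and 2.98 and 5.03 in N, and a rise from bIP to N of 1.88 ± 0.39 (adjusted p = 0.0019). Its rise from aRG to bIP (1.27 ± 0.47, adjusted p = 0.041) did not pass with DESeq2 (adjusted p = 0.08) or loess scaling (adjusted p = 0.066), nor without aRG 1, aRG 2 or bIP 1 (adjusted p of 0.12, 0.16 and 0.28).

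Against aRG, 2 regions on this side passed as lower in bIP and in N, that at 93.8 kb and that over the PSMD14 start, given below. At 93.8 kb, chr2B:47901426-47902177, which has PSMD14 as closest gene, there were 9.36 and 4.79 CPM in aRG, 9.18 and 5.07 in bRG, 2.43 and 2.92 in bIP and 0.621 and 0.511 in N. All radial glia libraries lay above bIP, and all bIP libraries above N. It fell by 3.63 ± 0.44 from aRG to N (adjusted p = 1.3e-05) and by 2.22 ± 0.45 from bIP to N (adjusted p = 0.0015). The fall from aRG to bIP (-1.4 ± 0.38, adjusted p = 0.0087) did not pass without aRG 1 (-0.84, adjusted p = 0.14) or bIP 1 (-1.28, adjusted p = 0.067). In both kinds of radial glia library 1 had more CPM than library 2.

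Library 1 exceeded library 2 in all 4 populations at 5 of the 33 members, and library 2 exceeded library 1 at another 5, where 25.8% of all regions had either pattern. The first 5 were the TBR1 start region, those at 32.9, 44.9 and 97.2 kb on the PSMD14 side and that at 32.0 kb on the other. At 44.9 kb the values were 7.01 against 2.77 CPM in aRG, 5.86 against 2.38 in bRG, 20.1 against 10.7 in bIP and 10.4 against 8.48 in N. This region rose from aRG to bIP by 1.65 ± 0.46 (adjusted p = 0.011). At 97.2 kb the aRG and bRG values were 15.4 against 8.44 and 12.6 against 7.99 CPM, and no comparison passed. The part of the library number in these values was not tested.

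Over the PSMD14 start, 107.2 kb away, accessibility differed little, though all radial glia libraries lay above all bIP and N libraries. There were 19.7 and 20 CPM in aRG, 16.7 and 18.7 in bRG, 12.2 and 15.8 in bIP and 13.5 and 15.4 in N. In the reported fit it passed in bIP against aRG (-0.50 ± 0.17, adjusted p = 0.029) and in N against aRG (-0.46 ± 0.17, adjusted p = 0.029). It is counted among the lower members in both comparisons. With loess scaling the first was -0.24 (adjusted p = 0.28) and the second turned to 0.10 (adjusted p = 0.62), so no direction is given for it. The first also missed with DESeq2 (-0.52, adjusted p = 0.066). Without aRG 1 or aRG 2 neither passed (adjusted p of 0.081 to 0.11), nor did the first without bIP 1 (-0.33, adjusted p = 0.19) or the second without N 1 (-0.39, adjusted p = 0.12). PSMD14 encodes a deubiquitinase of the proteasome that all cells use. The table gives the overlapping non-coding gene AC009299.3 as its closest gene. Averaged over all 8 libraries, the densest member was the wide region at 176.9 kb near LINC01806, with 16.5 (aRG), 14.4 (bRG), 25.3 (bIP) and 19.1 (N) CPM per kb. In aRG and bRG the region at 32.0 kb on the other side was denser (32.1 and 28.4), and in N that at 6.3 kb (29.5). The region at 176.9 kb was open in all populations. It rose in bIP over aRG by 0.62 ± 0.10 (adjusted p = 0.00046) and fell from bIP to N by 0.41 ± 0.10 (adjusted p = 0.0059). N against aRG was 0.20 ± 0.10 and did not pass, but passed with loess scaling (0.64, adjusted p = 3.2e-05) and without aRG 1 (0.33, adjusted p = 0.029).

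**Figure D3:**
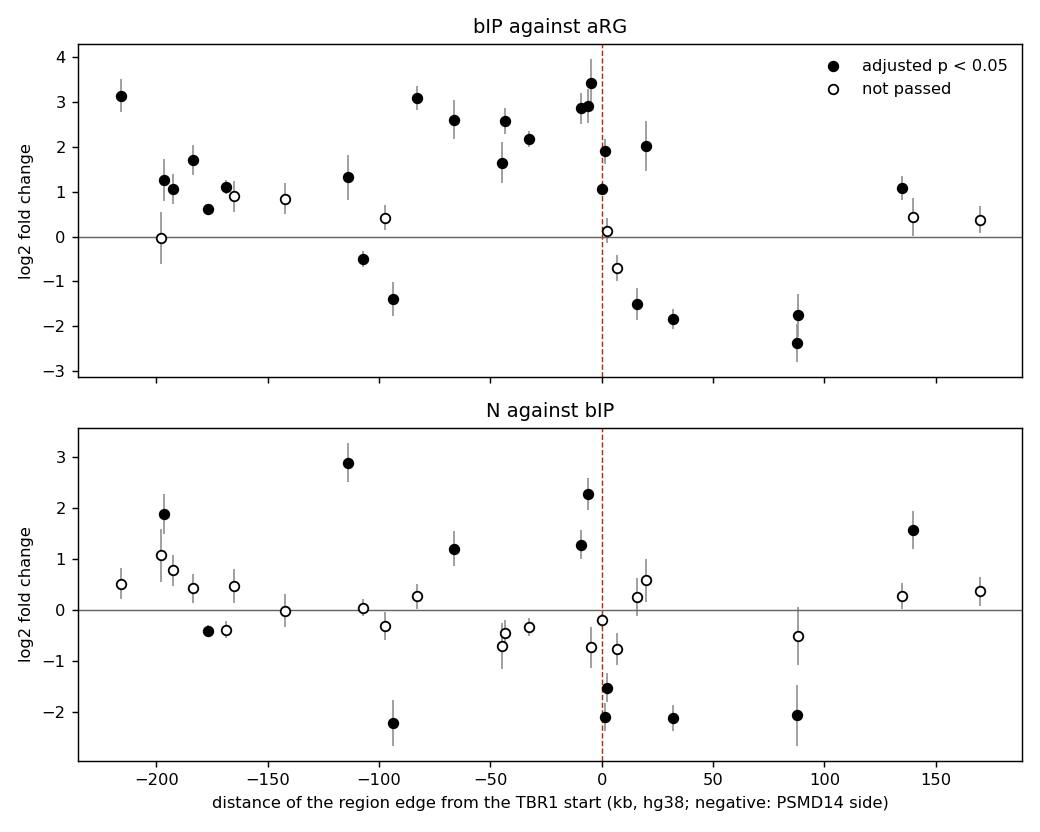
Log2 fold change of each of the 33 regions, with SE bars, against the distance of its nearest edge from the TBR1 start (dashed line), for bIP against aRG (top) and N against bIP (bottom); filled points passed an adjusted p of 0.05. In the top panel the 7 regions from 44.9 kb on the PSMD14 side to the start are all above 0. On the SLC4A10 side, 4 of the 7 regions from 2.4 to 88.3 kb passed below 0 (22.6% of all regions did). The region at 1.4 kb, between these stretches, passed above 0, and the stretches were picked after their values were seen.

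On the SLC4A10 side, 6 of 11 regions were lower and 4 higher in N than in aRG, where 31.7% of all regions were lower and 37.2% higher. One of the lower ones was the region at 32.0 kb, chr2B:48026052-48027123 (chr2:161448255-161449326 in hg38), whose closest gene is the non-coding AC009487.4. It had 40.8 and 28 CPM in aRG, 33.9 and 26.9 in bRG, 11.3 and 7.95 in bIP and 2.45 and 1.92 in N. Each step down left no overlap between libraries, from radial glia to bIP and from bIP to N. It fell by 1.84 ± 0.22 from aRG to bIP (adjusted p = 5.5e-05), by 2.13 ± 0.25 from bIP to N (adjusted p = 6.3e-05) and by 3.96 ± 0.25 from aRG to N (adjusted p = 1.5e-07). In radial glia libraries it had 1.26 to 1.59 times the CPM of the TBR1 start region, and in N libraries 0.0445 and 0.0540 times. Peaks were listed in aRG, bRG and bIP and not in N. No other member had that pattern, which 6.51% of all regions kept had.

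A pair of regions at 87.8 and 88.3 kb also fell from aRG to bIP, at lower levels. From bIP to N the first passed and the second did not (-0.52 ± 0.57). The second had 0.327 and 0.269 CPM in bIP, and its N values stand for 8 and 4 counts. The first had 2.23 and 3.28 CPM in aRG, 1.91 and 3.3 in bRG, 0.4 and 0.653 in bIP and 0.124 and 0.118 in N, where the N values stand for 4 and 3 counts. It fell by 2.38 ± 0.42 from aRG to bIP (adjusted p = 0.00061) and N against aRG was -4.45 ± 0.52 (adjusted p = 8.7e-06). Its step from bIP to N (-2.07 ± 0.60, adjusted p = 0.013) did not pass without N 1 (-2.13, adjusted p = 0.056), N 2 (-2.04, adjusted p = 0.062) or bIP 2 (-1.83, adjusted p = 0.079). The second had 1.10 and 0.924 CPM in aRG and 0.248 and 0.157 in N, and its fall from aRG to bIP (-1.75 ± 0.48, adjusted p = 0.0091) did not pass without aRG 1 or bIP 2 (adjusted p = 0.054 in each).

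Of the 7 regions between 2.4 and 88.3 kb on this side, 4 fell and 1 rose from aRG to bIP, and 6 fell and 1 rose from aRG to N. Of the 7 regions from 44.9 kb on the PSMD14 side up to and including the start region, 7 rose from aRG to bIP, and 6 rose and 0 fell from aRG to N. Over all regions tested, 24.5% rose and 22.6% fell from aRG to bIP, and 37.2% rose and 31.7% fell from aRG to N. Both stretches were picked after their values were seen, so these counts are a description. The region at 1.4 kb lies between the stretches and is counted in neither, and it rose from aRG to bIP (1.90 ± 0.27). The exception within the stretch on the SLC4A10 side was at 20.1 kb, with 2 to 6 counts per library in radial glia and 15 to 30 in the others. Beyond 100 kb on that side 3 regions rose from aRG to N.

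By their steps from aRG to bIP and from bIP to N, 12 of the 33 members rose and then did not pass (10.1% of all regions tested did), and 5 rose and rose again (8.57% of all; those at 6.3, 9.2, 66.4, 114.1 and 196.5 kb, all on the PSMD14 side). Another 3 fell and fell again (9.86% of all; 93.8 kb on the PSMD14 side, and 32.0 and 87.8 kb on the other). A further 2 rose and then fell (5.82% of all), those at 1.4 and 176.9 kb, and 6 passed at neither step (30.3% of all). Of the rest, 3 fell and then did not pass (12% of all). At the second step alone, 1 fell (6.88% of all) and 1 rose (15.7% of all). By mean CPM, 15 members were highest in N (40.6% of all regions were), 11 in bIP (18.2%), 6 in aRG (26.4%) and 1 in bRG (14.8%). The peak lists, 1 per population, overlapped 16 (aRG), 18 (bRG), 19 (bIP) and 21 (N) of the members by at least 1 base, against 37.7, 39.2, 37.4 and 38.1% of all regions kept. All 4 lists overlapped 10 members (17.7% of all regions), only those of aRG and bRG overlapped 5 (9.36%), only those of bIP and N overlapped 5 (6.05%), and only that of N overlapped 4 (11.3%), while 5 members had no listed peak (35.6%). All 33 had identifiers in human and gorilla too. Their median width was 978 bp, against 858 bp over all regions kept.

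The genes that lead up to TBR1 were then set beside it, as gene loci. TBR1 itself rose by 1.32 ± 0.10 from aRG to bIP (adjusted p = 0.00014), where 31.3% of all loci passed (16.6% higher, 14.7% lower). Of the 9 other factors of the excitatory sequence, 6 rose, 1 fell and 2 did not pass from aRG to bIP, with a median of 0.79 against -0.01 over all loci. From bIP to N, where 29.2% of loci passed (12.1% higher, 17.0% lower), 1 rose, 5 fell and 3 did not pass, with a median of -0.69 against -0.02. PAX6, the radial glia factor, fell at both steps (-0.49 ± 0.10 and -0.76 ± 0.11). EOMES, the factor of intermediate progenitors, rose by 0.72 ± 0.16 and then fell by 1.04 ± 0.16. INSM1, a zinc finger factor of newly formed progenitors, rose by 0.79 ± 0.10 and fell by 0.66 ± 0.10.

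The NEUROD genes, basic helix-loop-helix factors of differentiation, took different second steps. NEUROD1 rose by 1.46 ± 0.15 and NEUROD6 by 1.08 ± 0.15 from aRG to bIP, and neither passed from bIP to N (-0.15 ± 0.15 and -0.33 ± 0.15). NEUROD2 rose by 2.59 ± 0.11 and again by 0.34 ± 0.10. NEUROD4 rose by 1.4 ± 0.28 and fell by 1.76 ± 0.29. The proneural NEUROG1 fell from bIP to N by 0.69 ± 0.10 after a first step that did not pass (0.30 ± 0.10, adjusted p = 0.056). NEUROG2, with 1 region, passed at neither step. It differed between N and aRG (-2.22 ± 0.44, adjusted p = 0.0031).

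**Figure D4:**
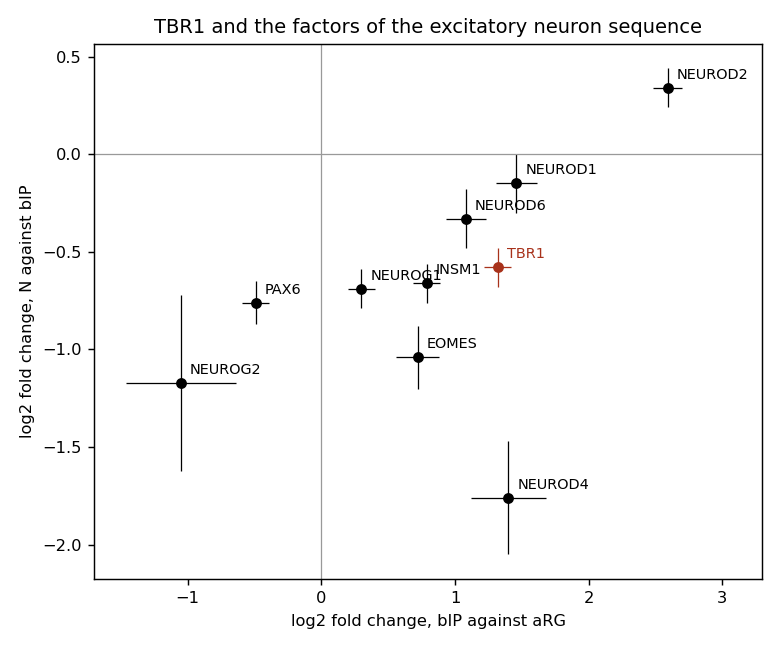
Log2 fold change of gene loci from aRG to bIP (horizontal) and from bIP to N (vertical), with SE bars both ways, for TBR1 (red) and the 9 other factors of the excitatory sequence. TBR1 lies at 1.32 and -0.58, and NEUROD2 alone of these loci lies above 0 on the vertical axis.

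Genes that work in mice ties to TBR1 or to layer 6 were counted next. Of 13 measured, 1 rose, 4 fell and 8 did not pass from aRG to bIP, where 16.6% of all loci rose and 14.7% fell. From aRG to N, where 52.9% of all loci passed (25.4% higher, 27.5% lower), 1 rose, 4 fell and 8 did not pass. BCL11B was the one that rose in bIP (0.34 ± 0.10, adjusted p = 0.035), and it fell from bIP to N (-0.58 ± 0.10, adjusted p = 0.0042). GRIN2B, a glutamate receptor subunit gene and known TBR1 target, rose in N over aRG (1.13 ± 0.20, adjusted p = 0.0016). TLE4 (-0.95 ± 0.08), a corepressor of layer 6 neurons, BCL11A (-0.93 ± 0.10), a zinc finger factor of cortical neurons, and FEZF2 (-0.79 ± 0.08), a factor of layer 5 that TBR1 is known to repress, fell (adjusted p of 4.3e-05, 0.00015 and 9.2e-05). AUTS2 and RELN, both known targets, did not pass between N and aRG (-0.13 and 0.41). CASK, a known partner, was not analysed here.

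Within the T-box family, of 14 other loci measured, 2 rose and 0 fell from aRG to bIP, where 16.6% of all loci rose and 14.7% fell. Those 2 were EOMES and TBX5. TBX5, a factor of heart and forelimb, had 2 regions with low CPM, from 0.440 and 0.857 in aRG to 7.35 and 7.26 in N, and rose by 3.49 ± 0.38 (adjusted p = 0.00012). From bIP to N, where 12.1% of all loci rose and 17.0% fell, 2 of the 14 rose and 4 fell. Among those that fell were TBX19 (-0.87), a pituitary factor, and TBX15 (-0.54), a factor of the skeleton. The family's median from aRG to bIP was 0.07.

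Protein-coding neighbours on both sides went in both directions. Of 10, 4 rose, 4 fell and 2 did not pass from aRG to N, where 52.9% of all loci passed (25.4% higher, 27.5% lower). GCG, the glucagon precursor gene, rose by 1.83 ± 0.32 (adjusted p = 0.0015), IFIH1, a sensor of viral RNA, by 1.10 ± 0.18 (adjusted p = 0.0012), GCA, a calcium-binding protein gene, by 0.83 ± 0.10 (adjusted p = 0.00019) and KCNH7, a potassium channel gene, by 0.80 ± 0.10 (adjusted p = 0.00033). FAP, a protease gene of fibroblasts, fell by 1.67 ± 0.27 (adjusted p = 0.0011), RBMS1, an RNA-binding protein gene, by 1.35 ± 0.13 (adjusted p = 5.8e-05), DPP4, a protease gene, by 0.93 ± 0.16 (adjusted p = 0.0016) and SLC4A10 by 0.54 ± 0.17 (adjusted p = 0.028). TANK, a gene of immune signalling, fell from bIP to N alone among the 3 steps given (-0.61 ± 0.16, adjusted p = 0.025). The PSMD14 locus passed in no comparison. It sums 2 regions and leaves out the one over the PSMD14 start, which has another closest gene. One of the 2, at 93.8 kb from the TBR1 start, fell from aRG to N when tested alone (-3.63 ± 0.44).

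The loci most like TBR1 over the 8 libraries were found from log2 CPM centred on each locus's mean, among 7465 other loci that passed the joint test, as 53.1% of loci did. The closest was SORBS2, an adaptor gene of the actin cytoskeleton, with a root mean square difference of 0.0544 and mean locus CPM of 43.3 (aRG), 36.9 (bRG), 108 (bIP) and 75.1 (N). It was followed by CCDC182 (0.123), SHISA7 (0.126), an accessory protein gene of GABA receptors, DOK4 (0.127), a signalling adaptor gene, and GFRA4 (0.133), a receptor gene for the GDNF family. All 5 had bIP highest and N second, as TBR1 had, which follows from how they were chosen. The 8 libraries stand for 4 populations, so this likeness rests on few points.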

How the data were processed

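Values were raw counts of reads in each region, whole numbers in 8 columns of a table the authors deposited. Notes by the submitters on processing name bcl2fastq 2.20.0, MACS2, panTro6 and hg38 without roles; no aligner is named. Each consensus peak list gave, in the narrowPeak layout of the deposited files, a score, a fold ratio, a -log10 p and q per peak and a summit; intervals and -log10 q were used.

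Rows without a chimpanzee identifier (6725, all with 0 counts) and 7 repeated identifiers were removed, leaving 211348 regions. Reading region starts from 0 matched 54881 peak starts, and reading them from 1 matched 11, so 1 was added to each start; human starts were shifted in the same way. Regions (198227) and gene loci (14070 tested, named by protein-coding symbols of NHGRI_mPanTro3-v2.0) were fitted with edgeR 4.0.16 (TMM, filterByExpr, robust quasi-likelihood F-test, population as the only term, all 8 libraries). Fold changes are log2 with SE, p adjusted by Benjamini-Hochberg over all features, threshold 0.05; "rose" and "fell" mean past it. CPM use TMM-scaled totals, over the regions tested for regions and over the loci tested for loci. Alternatives were DESeq2 1.42.0, its size factors, loess scaling, no filter, a replicate block, 2 populations alone, and each library left out. The fit was tested on simulated data. Promoter sequences and motifs, planned, were not analysed here.

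Named regions were those at the TBR1, PSMD14 and SLC4A10 starts, the densest, the 6 with the smallest joint p, the 3 largest rises and falls called in bIP against aRG, N against bIP and N against aRG, and any called in bRG against aRG; other members are given by counts or where said. Named list genes were those past the threshold, the 4 largest changes in longer lists. Members and lists were chosen with earlier results of these data known.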

Additional observations from a re-analysis of the deposited data

How the results depend on the processing

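Total counts of members called, both directions together, stayed within 1.5 times their values in every comparison and setting run. With each library left out in turn they ranged from 18 to 26 for bIP against aRG, 26 to 28 for N against aRG and 11 to 13 for N against bIP. A replicate block gave 28, 29 and 17 (7 higher, 10 lower), and 32 in the joint test, and with it N against bIP passed at 32.9 kb (-0.34, adjusted p = 0.039). The labels do not say that a number marks a shared culture or day. Deviations of same-numbered libraries correlated at 0.12 to 0.31 over the 6 pairs of populations, and with 2 numbers this is a hint from the data only. The TBR1 locus kept its direction and side of the threshold in each setting except the sum over all window regions, where N against bIP was -0.18. The windows of 10 kb, 50 kb and any distance held the same 3 TBR1 regions. Directions turned at the PSMD14 start, where N against bIP was -0.05 with DESeq2 and with its size factors and -0.15 without bIP 1, within a range of -0.15 to 0.11 over the libraries left out (-0.06 without N 2), and N against aRG was 0.10 with loess scaling. They also turned at the 1.4 kb region for N against aRG (0.17 with loess scaling). None of these turned values had passed in the setting concerned, and the cause was not tested. With 1 library left, a population was assumed to vary like the others. At depths of 24913928 to 34845193 counts, regions with under 10 counts in a library, such as those at 4.7, 20.1 and 87.8 kb, give their fold changes least firmly.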
